A study of Homo sapiens with 10 samples.

Results

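The miR-15/16 family is represented here by 10 mature miRNAs, chosen by name from a list of its 5p arms and 3 of their partner 3p arms, out of 2565 miRNA probes on each array. HuH-7, a long-established line from a human hepatocellular carcinoma, supplied the RNA. Cells kept for 96 h with 1 µM lenvatinib, an inhibitor of VEGF and FGF receptor tyrosine kinases, gave 5 arrays, and cells kept for 96 h without it gave another 5. All arrays were 1-colour 3D-Gene arrays hybridised with Cy5-labelled total RNA. No label says that arrays within a group stem from different cultures, so the p-values measure only array-to-array spread, possibly of technical origin.

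MicroRNAs guide Argonaute proteins to mRNAs that pair with their seed, bases 2 to 8, and lower the output of those mRNAs. Members of the miR-15/16 family share a seed that pairs with sites in mRNAs of the G1/S machinery, such as cyclin D1, cyclin E1 and CDK6, and in the mRNA of the survival factor BCL2, and they are known as brakes on proliferation. Each hairpin yields a 5p and a 3p arm, of which the 5p arm is the main product in this family and the 3p arm is mostly degraded. The target mRNAs were not measured in this series.

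The mature sequences show which members can act on the same sites and which probes face near-identical RNAs. All 10 matched a RefSeq entry (build GRCh38.p14), and capitals mark the seed.
hsa-miR-15a-5p: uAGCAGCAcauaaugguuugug
hsa-miR-15b-5p: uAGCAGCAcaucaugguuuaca
hsa-miR-16-5p: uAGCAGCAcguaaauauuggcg
hsa-miR-195-5p: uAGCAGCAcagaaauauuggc
hsa-miR-497-5p: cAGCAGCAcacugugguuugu
hsa-miR-424-5p: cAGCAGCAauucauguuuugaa
hsa-miR-503-5p: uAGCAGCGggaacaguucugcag
hsa-miR-15b-3p: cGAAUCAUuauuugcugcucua
hsa-miR-16-2-3p: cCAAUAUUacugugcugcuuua
hsa-miR-424-3p: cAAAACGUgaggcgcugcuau
The first 6 share the seed AGCAGCA, which 7 of 2370 mature miRNAs in the RefSeq table carry, the other being miR-6838-5p, which is not among the 10. In miR-503-5p the last seed base differs, and the 3p arms carry other seeds, that of miR-16-2-3p being shared with miR-195-3p. Over their whole length, miR-16-5p and miR-195-5p matched at 19 of 21 positions counted from the 5′ end and miR-15a-5p and miR-15b-5p at 18 of 22. Probe sequences are not in the array files, so how far such probes share signal was not tested.

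The hairpins lie in 4 clusters. MIR15A (chr13:50049119-50049201, minus strand) and MIR16-1 (chr13:50048973-50049061) fall within the span of DLEU2, a non-coding RNA gene, and MIR15B (chr3:160404588-160404685, plus strand) and MIR16-2 (chr3:160404745-160404825) within those of SMC4, a condensin subunit gene, and TRIM59-IFT80. Both MIR16 hairpins give the same miR-16-5p, so its probe cannot separate them. MIR195 (chr17:7017615-7017701, minus strand) and MIR497 (chr17:7017911-7018022) fall within MIR497HG. MIR503 (chrX:134546328-134546398, minus strand) falls within MIR503HG, and MIR424 (chrX:134546614-134546711) lies near MIR503 on the same strand.

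The arrays of the groups differed in brightness before any family member is considered. Blank spots averaged 68.1 ± 9.88 intensity units on lenvatinib arrays and 33.4 ± 1.52 on control arrays (SD, n = 5 each), with no overlap (exact two-sided permutation test, p = 0.00794, adjusted p = 0.0106 over 4 array measures). Spike controls were higher on lenvatinib arrays by 1.26 and the median over the 868 miRNAs present on all arrays by 1.35 on the log2 scale, each with the same p, while the number of detected miRNAs overlapped, at 1209 to 1497 on lenvatinib arrays and 1232 to 1546 on control arrays. The lowest detected value was 3.80 to 6.57 subtracted units on lenvatinib arrays and 1.65 to 2.14 on control arrays, so detection of a dim probe is not alike between groups. Brightness of the array and treatment cannot be told apart in this design, so changes are given after quantile normalization, relative to the other miRNAs on the array. In total 1346 probes, detected on at least 5 of 10 arrays, were tested with limma, and a call means an adjusted p under 0.05. Calls numbered 163 higher and 126 lower after quantile normalization, 187 and 87 after scaling to the spike controls, and 1287 and 2 with no scaling, which left the median change of all probes at 1.30. Lenvatinib replicate 5 stood apart, with the brightest blanks (85.7) and correlations of 0.938 to 0.947 with the other lenvatinib arrays, against 0.969 to 0.983 among control arrays. The RNA extraction label names serum although the other labels describe cultured cells, so blood cell and hepatocyte markers are given with the results.

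After quantile normalization, members of the family moved in different directions. The 5p arms miR-16-5p, miR-424-5p and miR-503-5p were higher in lenvatinib-treated cells, 1.78-fold, 1.46-fold and 1.43-fold, while miR-497-5p and the partner arm miR-15b-3p were lower, 1.51-fold and 1.71-fold. Both lower members lay close to background, and before scaling they were brighter on lenvatinib arrays, 1.61-fold and 1.41-fold. On leaving out 1 array, miR-497-5p kept its call in 1 of 10 cases and miR-15b-3p in 3 of 10. Of the 10 members 9 could be tested, and 3 of them rose, against a background of 12.1% of all tested probes, and 2 fell, against 9.36%. The members' median change was 0.05 on the log2 scale and that of all tested probes -0.03, with 6 of the 9 members above 0. Members, and the lists below, were chosen with earlier results of these data known, so their counts and medians describe them and test nothing. Groups of arrays did not overlap for 3 members that were higher and 2 that were lower, 5 in all, against 11.1%, 8.84% and 20.0% of all tested probes. The other 4 tested members, miR-15a-5p, miR-15b-5p, miR-195-5p and miR-16-2-3p, did not pass. In bulk RNA, fewer cells with a miRNA and less of it per cell cannot be told apart.

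**Figure D1:**
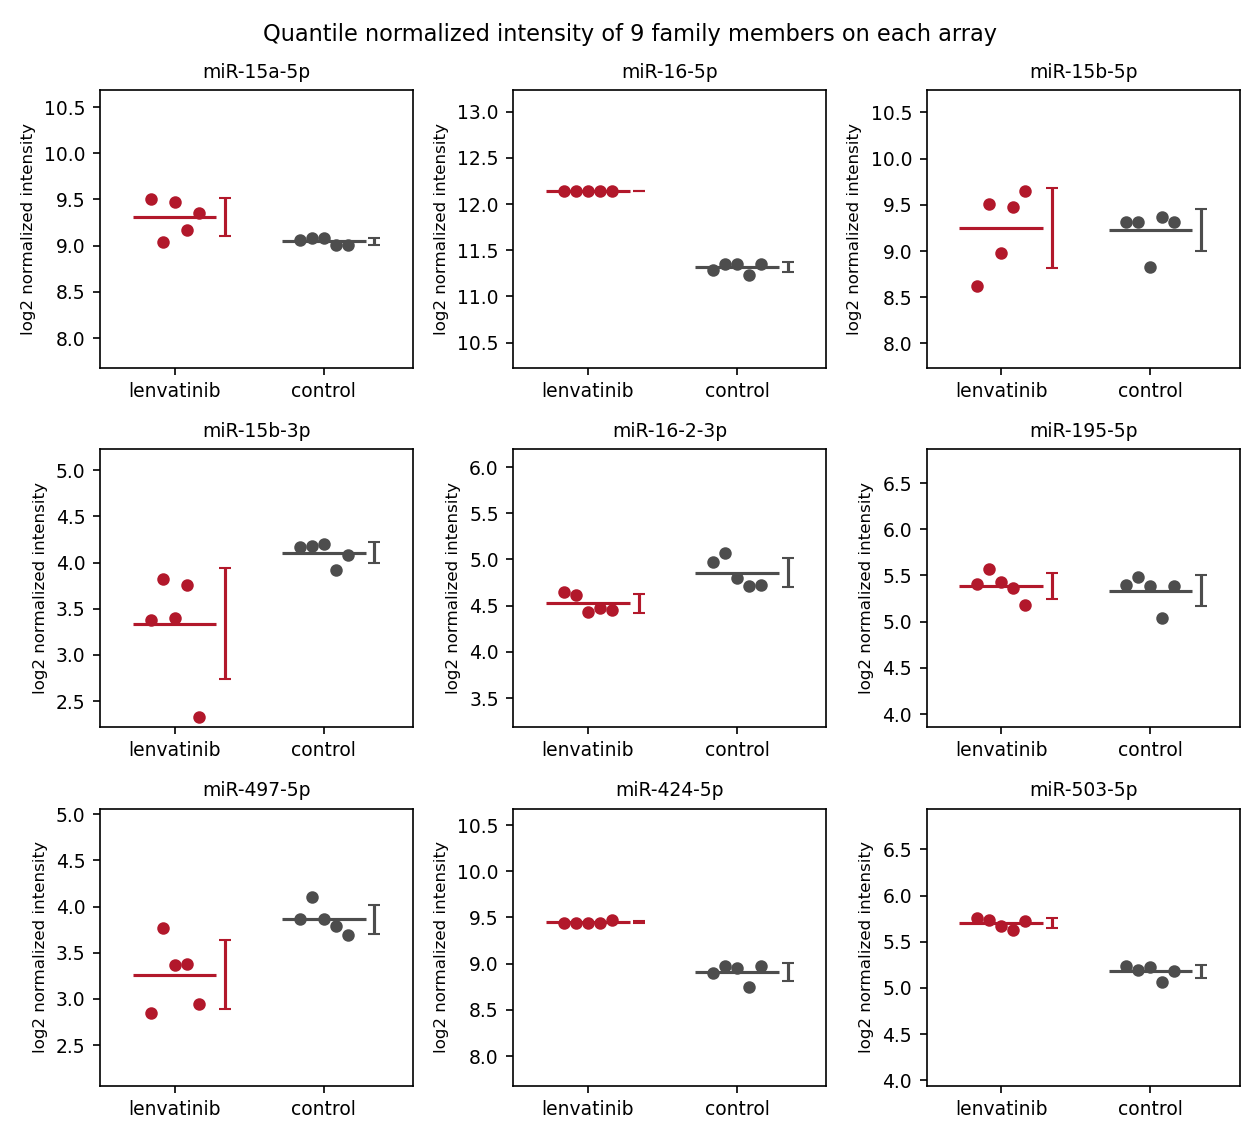
Quantile normalized intensity (log2, vertical axis, each panel spanning the same range) of the 9 tested members on each lenvatinib and control array. Points are arrays, horizontal lines group means and bars the SD of 5 arrays. The lenvatinib points lie wholly above the control points for miR-16-5p, miR-424-5p and miR-503-5p and wholly below them for miR-15b-3p and miR-16-2-3p.

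The largest change in the family after quantile normalization was that of miR-16-5p, the member named with miR-15a as a repressor of BCL2 and cyclins. Its background-subtracted intensity was 6231, 6537, 6399, 5865 and 6089 on the lenvatinib arrays and 1950, 1718, 2130, 1669 and 2020 on the control arrays. Every lenvatinib array was brighter than every control array, on arrays that were brighter throughout, and the geometric means differed 3.29-fold. All folds before scaling are ratios of geometric means. After quantile normalization the log2 values averaged 12.1 ± 0.0011 on lenvatinib arrays and 11.3 ± 0.054 on control arrays (SD, n = 5 each), a change of 0.83 ± 0.10 (SE, limma adjusted p = 0.000246). Quantile normalization gives probes of equal rank equal values, so the small spread on lenvatinib arrays is one of rank and not of brightness. Scaling each array by 1 factor gave a smaller change, 0.37 with the median (limma adjusted p = 0.118), 0.43 with the 75th percentile (adjusted p = 0.0762) and 0.46 with the spike controls (adjusted p = 0.0477). Leaving out any 1 array kept the call, with changes of 0.81 to 0.86, and 0.84 without lenvatinib replicate 5.

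MiR-15a-5p, which comes from the same DLEU2 transcript as 1 source of miR-16-5p, measured 1143, 825, 1177, 983 and 965 on the lenvatinib arrays, against 346, 295, 360, 302 and 338 on the control arrays. Before scaling this was 3.09-fold, close to the 3.29-fold of miR-16-5p. After normalization the values ran from 9.04 to 9.51 on lenvatinib arrays and from 9.01 to 9.08 on control arrays, so lenvatinib replicate 2 fell within the control range. The change of 0.26 ± 0.13 (SE) did not pass (limma adjusted p = 0.177), and lay between 0.18 and 0.36 in all the alternatives that scaled the arrays. Among these it passed at 0.24 with normexp (limma adjusted p = 0.0403) and with no background correction (adjusted p = 0.0401), as it did with no scaling.

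MiR-15b-5p, the SMC4-hosted counterpart of miR-15a-5p, measured 624, 1231, 802, 1193 and 1250 on the lenvatinib arrays, against 386, 374, 300, 392 and 395 on the control arrays. The lenvatinib arrays differed widely among themselves, and after normalization replicate 1 (8.62) lay below every control array while replicate 5 (9.65) lay above all of them. The change was 0.02 ± 0.21 (SE, limma adjusted p = 0.966). Before scaling, miR-15b-5p was lowest on lenvatinib replicates 1 and 3 and on control replicate 3, the arrays on which miR-15a-5p was highest in its group.

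Both measured 3p arms of the SMC4 cluster were low and lay close to background. MiR-15b-3p, the partner strand of miR-15b-5p, measured 14.8, 20.1, 15.998, 21.6 and 8.59 on the lenvatinib arrays and 11.0, 11.5, 11.7, 10.8 and 10.2 on the control arrays, with raw brightness only 1.10 to 1.33 times that of the blanks on lenvatinib arrays and 1.29 to 1.35 times on control arrays. Its normalized change was -0.77 ± 0.25 (SE, limma adjusted p = 0.0459), with groups that did not overlap. The lowest of the lenvatinib values, 2.33, was that of replicate 5, the other 4 lying between 3.38 and 3.82, and without that array the change was -0.51 (limma adjusted p = 0.0142). Leaving out lenvatinib replicate 1 or 3 or any 1 control array lost the call, with changes of -0.83 to -0.75 and adjusted p of 0.0613 to 0.0907.

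MiR-16-2-3p, the arm made only by the SMC4-hosted MIR16-2 hairpin, measured 35.9, 36.9, 33.2, 36.8 and 40.5 on the lenvatinib arrays and 19.0, 18.8, 17.8, 17.3 and 16.02 on the control arrays. All 5 normalized lenvatinib values, 4.43 to 4.65, lay below the 5 control values, 4.71 to 5.07, 1 of the 2 downward separations counted above. The change of -0.33 ± 0.12 (SE) did not pass limma (adjusted p = 0.0776). The probe passed in 7 of 26 alternatives, 1 of them upward, with no scaling.

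The chromosome 17 pair diverged. MiR-195-5p, which resembles miR-16-5p over most of its length, measured 67.8, 78.2, 73.5, 75.1 and 64.9 on the lenvatinib arrays, against 24.96, 24.5, 26.6, 21.7 and 25.1 on the control arrays, a 2.93-fold difference before scaling. Its normalized values overlapped (5.18 to 5.57 on lenvatinib arrays and 5.04 to 5.48 on control arrays), and the change was 0.05 ± 0.13 (SE, limma adjusted p = 0.827). MiR-497-5p, from the hairpin next to it, measured 10.5, 19.5, 15.7, 16.7 and 14.1 on the lenvatinib arrays and 8.76, 11.0, 9.34, 9.97 and 7.77 on the control arrays, only 1.61-fold brighter on brighter arrays.

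For miR-497-5p the normalized change was therefore downward, -0.60 ± 0.18 (SE, limma adjusted p = 0.0362), although lenvatinib replicate 2 (3.77) lay inside the control range of 3.69 to 4.10. Its raw brightness was 1.16 to 1.31 times that of the blanks on lenvatinib arrays and 1.22 to 1.32 times on control arrays. Only omission of lenvatinib replicate 2 kept the call (-0.73, adjusted p = 0.0118), and omission of any other array lost it, with changes of -0.64 to -0.50 and adjusted p of 0.0507 to 0.0834. With no background correction both low members kept a downward call, of -0.12 for miR-497-5p (limma adjusted p = 0.0351) and -0.16 for miR-15b-3p (adjusted p = 0.0192).

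On the X chromosome both 5p arms rose together. MiR-424-5p, whose mouse counterpart miR-322 takes part in cell cycle exit during muscle differentiation, measured 1137, 1186, 1160, 1142 and 1053 on the lenvatinib arrays, against 318, 278, 333, 260 and 335 on the control arrays. MiR-503-5p, known as a repressor of cyclin D1, measured 81.5, 87.8, 85.2, 88.1 and 87.3 on the lenvatinib arrays, against 23.0, 19.9, 23.6, 21.8 and 22.1 on the control arrays. Neither overlapped between the groups, and these were the widest differences of the family before scaling, 3.74-fold and 3.90-fold, where the median of all probes detected on every array was 2.51-fold.

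After normalization miR-424-5p averaged 9.45 ± 0.012 on lenvatinib arrays and 8.91 ± 0.097 on control arrays (SD, n = 5 each), a change of 0.54 ± 0.11 (SE, limma adjusted p = 0.00406). MiR-503-5p averaged 5.70 ± 0.056 on lenvatinib arrays and 5.18 ± 0.070 on control arrays (SD, n = 5 each), a change of 0.52 ± 0.11 (SE, limma adjusted p = 0.00472). Each call held in 25 of 26 alternatives and on leaving out any 1 array, and was lost only when undetected probes were left missing (limma adjusted p = 0.0534 for miR-424-5p and 0.153 for miR-503-5p). For miR-503-5p the change was 0.23 with normexp background correction (limma adjusted p = 3.28e-05), a setting that added 50 units to every probe. The partner arm miR-424-3p was detected on only 2 lenvatinib arrays, at 6.80 and 6.53, and 1 control array, at 2.84, and was not tested.

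How far each direction depended on the scaling is shown by the changes under 6 scalings. Direction was the same for all 9 members with quantile, cyclic loess, median, 75th percentile and spike control scaling. The last 3 each subtract 1 amount per array, so between them the members' changes differ only by a common shift and are not separate checks. With no scaling all 9 were higher on lenvatinib arrays, 8 of them with a call, so miR-497-5p (0.69), miR-15b-3p (0.49) and miR-16-2-3p (1.04) fell only relative to the other miRNAs, whose median change was then 1.30. Set against that median without scaling, miR-503-5p stood at 0.66, miR-424-5p at 0.60, miR-16-5p at 0.41, miR-15a-5p at 0.32, miR-195-5p at 0.25 and miR-15b-5p at 0.12, and miR-16-2-3p at -0.26, miR-497-5p at -0.62 and miR-15b-3p at -0.81.

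**Figure D2:**
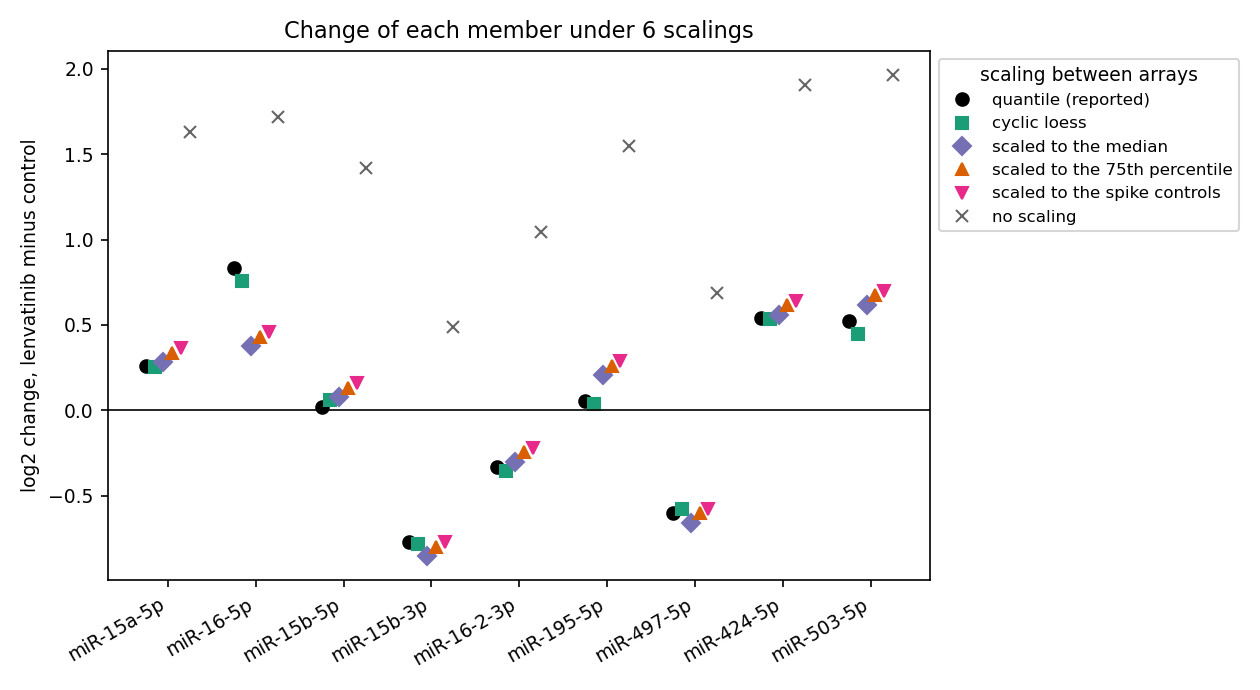
Log2 change, lenvatinib minus control, of each tested member (horizontal axis) under 6 scalings of the arrays (symbols). MiR-424-5p, at 0.54 to 0.64, and miR-497-5p, at -0.66 to -0.58, moved little between the 5 scalings other than none, while miR-16-5p ran from 0.37 to 0.83 and every member was above 0 with no scaling.

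Ratios of 2 members on the same array do not depend on a scaling factor of that array, but do depend on its background. They were compared for 6 pairs. The arms of the miR-15b hairpin, miR-16-5p and miR-16-2-3p, and the chromosome 17 partners changed unequally, while the other pairs did not pass. Since miR-16-5p comes from both MIR16 hairpins, its ratio to miR-16-2-3p is not one of the arms of a single hairpin. The ratio of miR-16-5p to miR-16-2-3p was higher in lenvatinib-treated cells by 0.68 on the log2 scale, or 1.597-fold, and that of miR-15b-5p to miR-15b-3p by 0.93, or 1.90-fold. For miR-195-5p to miR-497-5p the ratio was higher by 0.86, or 1.82-fold. These 3 ratios did not overlap between the groups (exact two-sided permutation test, p = 0.00794, the smallest it can give, and adjusted p = 0.0159 over 6 pairs). Each kept its call on leaving out any 1 array, and the ratio of the miR-15b arms was 0.63 without lenvatinib replicate 5. In each of these 3 ratios the denominator was a dim probe. On lenvatinib arrays the raw brightness of miR-15b-3p was 1.10 to 1.33 times that of the blanks. For miR-16-2-3p it was 1.47 to 1.59 times and for miR-497-5p 1.16 to 1.31 times. The sizes of the 3 ratios moved with the background handling. The ratio of miR-195-5p to miR-497-5p was 0.51 with normexp and 0.32 with no background correction, and that of miR-16-5p to miR-16-2-3p 1.28 with normexp. Normexp added 50 units to every probe and no correction left the blank level in, each more than the subtracted intensity of the denominators. In these settings the ratios are no longer free of array brightness, so their sizes are not independent checks.

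The remaining 3 pairs did not pass. The ratio of miR-424-5p to miR-503-5p differed by -0.06, with 3.59 to 3.80 on lenvatinib arrays and 3.58 to 3.93 on control arrays (exact permutation test, adjusted p = 0.438). That of miR-15a-5p to miR-16-5p differed by -0.09 (-2.99 to -2.44 on lenvatinib arrays and -2.58 to -2.47 on control arrays, adjusted p = 0.516), and that of miR-15b-5p to miR-16-5p by -0.30 (-3.32 to -2.28 on lenvatinib arrays and -2.83 to -2.09 on control arrays, adjusted p = 0.321). After quantile normalization both ratios to miR-16-5p fell, with an adjusted p of 0.0159 for miR-15a-5p (-0.57) and 0.0190 for miR-15b-5p (-0.81). A larger rise of miR-16-5p than of its cluster partners therefore passed the test after quantile normalization only. In the subtracted intensities the differences had the same direction and did not pass. With normexp correction the ratio of miR-424-5p to miR-503-5p turned to 0.81 (exact permutation test, adjusted p = 0.0119) and with no background correction to 0.37 (adjusted p = 0.0159). The 50 units added by normexp, or the blank level left in, exceeded the 19.9 to 23.6 subtracted units of miR-503-5p on control arrays. Both values therefore also vary with array brightness, and do not by themselves show unequal change of the pair. Without control replicate 4 it passed at -0.11 (adjusted p = 0.0476). The ratio of the miR-15b arms was 0.47 with no background correction and did not pass (adjusted p = 0.0833).

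**Figure D3:**
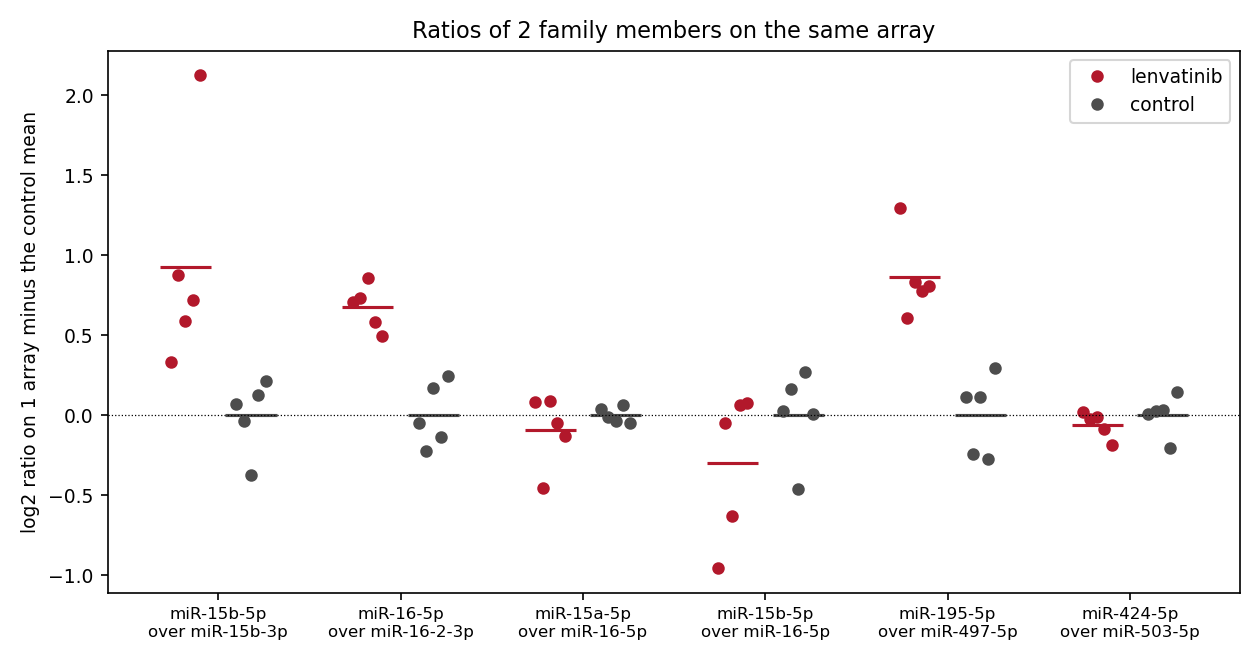
Log2 ratio of background-subtracted intensities of 2 members on each lenvatinib and control array, minus the control mean of that ratio. Points are arrays and lines group means. Lenvatinib arrays lie above all control arrays for miR-15b-5p over miR-15b-3p, miR-16-5p over miR-16-2-3p and miR-195-5p over miR-497-5p, by 0.93, 0.68 and 0.86 on average, and overlap with them for the other 3 pairs.

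Likeness of pattern was measured as the root mean square difference of centred log2 values over the 10 arrays. Centring over all 10 keeps the difference between groups, so probes with like changes lie near each other by construction. It was taken over 857 other probes, detected on all of the arrays and with no spot marked NG. The probe nearest to miR-424-5p was that of its cluster partner miR-503-5p, at 0.053, where the median over all probes was 0.42. Next came miR-99b-5p, at 0.096, which changed by 0.63 ± 0.11 (SE, limma adjusted p = 0.00202). After scaling to the median (a setting added after seeing the data) miR-503-5p was again the nearest, at 0.100, followed by miR-16-5p, at 0.103. Nearest to miR-16-5p were miR-200b-3p, at 0.089, and miR-4689, at 0.10, with changes of 0.92 ± 0.12 each (limma adjusted p = 0.000273 and 0.000282). After scaling to the median miR-28-5p and miR-151a-3p took their place, at 0.090 and 0.092.

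Other products of the same hairpins and clusters were dim. Of 6 further arms and seed relatives 3 were tested and 0 passed limma or the exact permutation test (0 had an unadjusted p under 0.05). They were miR-16-1-3p at -0.07 ± 0.26 (SE), the arm made only by the DLEU2-hosted MIR16-1 hairpin, miR-15a-3p at -0.36 ± 0.32 and miR-6838-5p, which carries the family seed, at -0.67 ± 0.31. MiR-195-3p and miR-497-3p were detected on no array. Of 7 neighbours of miR-424 and miR-503 on the X chromosome 2 were tested and 0 passed limma, although 1 had an unadjusted p under 0.05. That was miR-542-3p, which stood at 0.97 ± 0.32 (SE, limma adjusted p = 0.0514), detected on 5 lenvatinib and 4 control arrays. MiR-450a-5p stood at 0.23 ± 0.16, detected on all 10.

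Hsa-miR-103a-3p and hsa-miR-107, which carry the AGCAGC motif of the family near their 5′ end and are encoded in pantothenate kinase genes, both rose. They changed by 0.47 ± 0.11 and 0.41 ± 0.11 (SE, limma adjusted p = 0.0108 and 0.0206), 2 of 3 tested in their list, against 12.1% higher among all tested probes. The other, miR-646, was at 0.20. After scaling to the median neither passed, with hsa-miR-103a-3p at 0.096 and miR-107 at 0.084 (limma adjusted p = 0.723 and 0.734).

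Among other miRNAs known to repress G1/S cyclins, their kinases or E2F, 1 of 6 tested rose and 0 fell, against 12.1% and 9.36% of all tested probes (1 and 0 with an unadjusted p under 0.05, and 2 and 0 by the exact permutation test). It was miR-193b-3p, a cyclin D1 repressor, at 0.82 ± 0.16 (SE, limma adjusted p = 0.00302), and the list's median was 0.10, against -0.03 over all probes tested. For hsa-miR-34a-5p, a repressor of CDK6 and cyclin D1, the groups did not overlap. It stood at 0.20 ± 0.12 (SE, limma adjusted p = 0.292) after quantile normalization and passed after scaling to the median, at 0.45 (adjusted p = 0.0326), the 75th percentile, at 0.51 (adjusted p = 0.0225), or the spike controls, at 0.53 (adjusted p = 0.00855).

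Among 8 miRNAs known to repress the CDK inhibitors p21 or p27, which thereby favour proliferation, 0 rose and 2 fell, against 12.1% and 9.36% of all tested probes (0 and 4 with an unadjusted p under 0.05, 0 and 3 by the exact permutation test). MiR-106b-5p, a p21 repressor, changed by -0.74 ± 0.14 (SE, limma adjusted p = 0.00234) and miR-221-3p, a p27 repressor, by -0.44 ± 0.12 (adjusted p = 0.0230). With no scaling these rose by 0.35 and 0.93, below the 1.30 of all probes, and for hsa-miR-221-3p the call did not survive median scaling, at -0.41 (adjusted p = 0.0643), scaling to the 75th percentile, at -0.35 (adjusted p = 0.117), or to the spike controls, at -0.33 (adjusted p = 0.107). After scaling to the median hsa-miR-17-5p, at -0.67 (limma adjusted p = 0.0385), hsa-miR-20a-5p, at -0.46 (adjusted p = 0.0324), and hsa-miR-106a-5p, at -0.45 (adjusted p = 0.0463), passed, against -0.20, -0.12 and -0.00048 after quantile normalization. The list's median was -0.24 after quantile normalization, against -0.03 over all probes tested, a difference not tested for a list chosen with earlier results known.

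**Figure D4:**
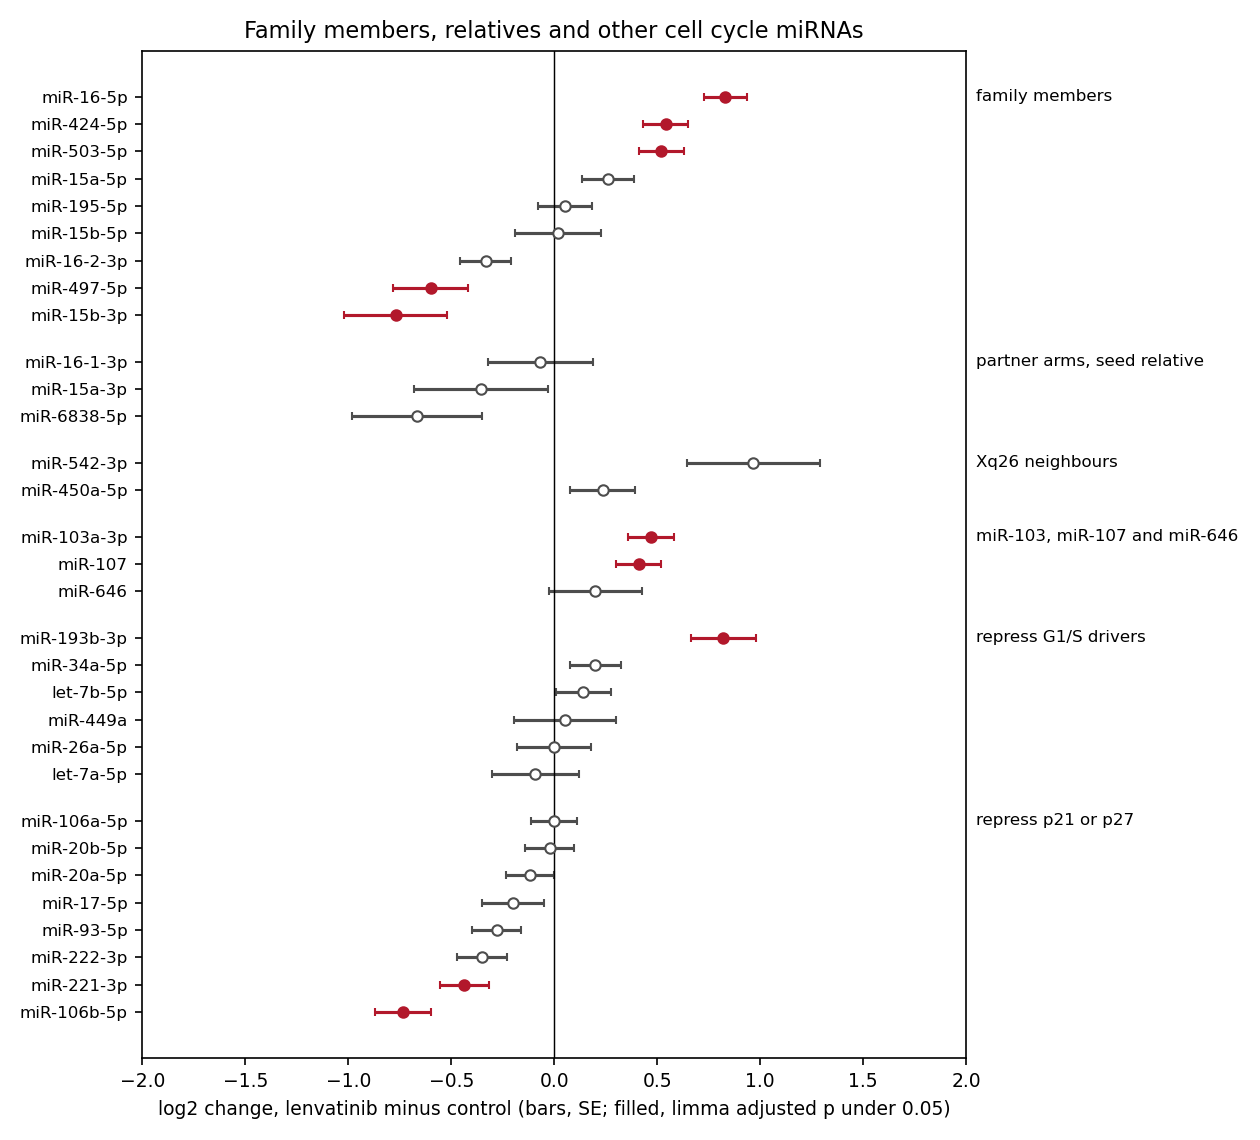
Log2 change, lenvatinib minus control, with its SE, of every tested family member, relative and other cell cycle miRNA, grouped by list. Filled points passed an adjusted p of 0.05 in limma. Family members run from -0.77 to 0.83, and the miRNAs that repress p21 or p27 from -0.74 to -0.00048.

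MiR-16-5p is abundant in blood cells, so markers of blood cells are given beside it. Their detection counts are not alike between groups, since the lowest detected values were higher on lenvatinib arrays. Sums below are of subtracted intensities before scaling, with undetected probes counted as 0, where the median probe was 2.51-fold brighter on lenvatinib arrays. They therefore do not compare marker content between groups. The 5 erythroid markers summed to 18.1 to 57.8 units on lenvatinib arrays and 13.3 to 18.5 on control arrays. MiR-451a, the defining erythroid miRNA, was detected on 3 lenvatinib and 5 control arrays, at -0.71 ± 0.33 (SE, limma adjusted p = 0.154), miR-144-5p on none and miR-144-3p on 2 lenvatinib and 0 control arrays. MiR-486-5p and miR-486-3p were detected on all 10, at 0.03 and 0.41, and 0 of 3 tested markers passed limma (0 with an unadjusted p under 0.05). The 4 leukocyte markers summed to 0 to 32.1 units on lenvatinib arrays and 8.20 to 13.5 on control arrays, with miR-223-3p on 0 lenvatinib and 2 control arrays. MiR-142-3p was detected on 4 lenvatinib and 5 control arrays, at 0.33, and 0 of 2 passed limma (0 with an unadjusted p under 0.05). All 5 hepatocyte markers were detected on every array, at 13400 to 17499 units in sum on lenvatinib arrays and 4849 to 5962 on control arrays. Of these 3 rose and 1 fell in limma, against 12.1% and 9.36% of all tested probes. The fall was that of hsa-miR-885-5p, at -1.22 ± 0.12 (SE, limma adjusted p = 0.000121). None of the rises passed after scaling to the median, with hsa-miR-122-5p at -0.03 against 0.35 after quantile normalization, hsa-miR-192-5p at 0.22 against 0.45 and hsa-miR-194-5p at 0.30 against 0.59 (limma adjusted p = 0.899, 0.330 and 0.137 with median scaling).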

How the data were processed

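Each deposited array file gives raw, background-subtracted and globally normalized intensity, all linear, per the file headers. In the values, the authors' subtracted intensity was raw brightness minus the mean of the 320 blank spots trimmed by 5% at each end, empty unless it exceeded that mean by 2 SD, a rule that matched all 2565 probes of every array. The scanner is not given in these sources. Here, spots marked NG were left out (none of a member), each undetected probe took the lowest value detected on its array, and log2 values were quantile normalized. Probes detected on at least 5 arrays (1346) were tested with limma 3.58.1 in R 4.3.3, two-sided, with Benjamini-Hochberg adjustment over all of them. Array measures and ratios were tested by exact permutation (NumPy 2.4.6). Both tests were checked on simulated data that held no difference in array brightness between groups, so the checks do not cover that difference here. The number of arrays limits the precision. All members and every probe of the listed relatives were to be named, with the 2 probes most like miR-16-5p and miR-424-5p. The members and lists were chosen with earlier results of these data known. Alternatives covered background (normexp with an offset of 50 units, or no correction), scaling, filter, undetected and NG spots, block, test and left-out arrays. The deposited series table of the authors' processed intensity held 9 members.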

Additional observations from a re-analysis of the deposited data

Results flagged for a closer look

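Chance would single out about 1 in 20 groups of 5 values if values were independent and not tied. Here quantile normalization gave equal values, such as 12.1455 for miR-16-5p on lenvatinib replicates 2, 3 and 4. The brightness measures of an array are also related, so that rate is only a rough guide. Of 38 groups of 5 values, 7 held an array far from the other 4. On lenvatinib replicate 5 these were the blank level, at 85.7 against 62.3 to 65.0, the spike controls, at 15.1 against 14.6 to 14.7 (log2), and the median of miRNAs detected on all arrays, at 5.12 against 4.62 to 4.76 (log2). Its normalized miR-16-5p (12.143 against 12.1452 to 12.1455) and miR-424-5p (9.47 against 9.44) were also apart, by under 0.03 on the log2 scale. On control replicate 3 miR-15b-5p was at 8.82 against 9.32 to 9.36, and without it the change of miR-15b-5p was -0.090 (limma adjusted p = 0.827). On control replicate 4 miR-195-5p was at 5.04 against 5.38 to 5.48, and without it the change was -0.020 (limma adjusted p = 0.946).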

How the results depend on the processing

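Of 26 alternatives, the call held in 25 for miR-424-5p and miR-503-5p, 23 for miR-16-5p and 11 for miR-15b-3p, and miR-497-5p passed in 13, 1 of them upward. The number of members higher stayed within 1.5 times of 3 except for 8 with no scaling and 1 with undetected probes left missing. The number lower was 2, but 3 with normexp, no background correction, the authors' series table or probes detected on all arrays, 0 after spike control scaling, with no scaling, with the authors' global normalization or with undetected probes missing, 1 with cyclic loess, with undetected probes set below the floor or with the replicate block, and 0 to 2 on leaving out 1 array. Signs turned with no scaling for miR-15b-3p (0.49), miR-16-2-3p (1.04) and miR-497-5p (0.69), with undetected probes missing for miR-195-5p (-0.019), without control replicate 4 for miR-195-5p (-0.020, with -0.020 to 0.11 over all arrays left out), and for miR-15b-5p on leaving out 1 of 4 arrays (-0.090 to 0.19 over all 10). The ratio of miR-424-5p to miR-503-5p turned with normexp (0.81), no background correction (0.37) and quantile normalization (0.020). With normexp and with no correction the ratios also vary with array brightness. Of 6 ratios 3 passed, 5 after quantile normalization and 0 as same-numbered pairs, where 0.0625 is the smallest possible p. The numbers were not taken as pairs, since no label says that a number marks a shared culture, batch or day. Deviations of same-numbered arrays correlated at 0.00085 for number 5 and at 0.12 to 0.14 for the others, and 3 of 5 lenvatinib arrays correlated best with their own number. These values do not settle whether the numbers are pairs. With the block, 142 probes were higher and 115 lower, against 163 and 126 without it. With undetected probes missing, 90 probes were higher and 92 lower, and with no scaling 1287 and 2. The cause was not tested.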
